A study of Mus musculus with 12 samples.

Results

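The TNF response of Rela-/-Nfkb2-/- mouse embryonic fibroblasts (MEFs) was compared with that of Rela-/-Relb-/-Rel-/- MEFs. For each gene the change with TNF in Rela-/-Relb-/-Rel-/- cells was subtracted from the change with TNF in Rela-/-Nfkb2-/- cells, so a positive difference means that the response was higher in Rela-/-Nfkb2-/- cells. A gene was included when a probe of it was detected above background by both arrays of any of the 4 mutant groups. There were 9735 such features (8976 named genes and 759 probes with no gene name here), left from 12966 of the 25697 probes listed. The 8 mutant arrays, out of 12 in the series, were made of 2 Rela-/-Nfkb2-/- arrays with TNF (10 ng/ml for 6 h), 2 untreated Rela-/-Nfkb2-/- arrays, 2 Rela-/-Relb-/-Rel-/- arrays with TNF and 2 untreated Rela-/-Relb-/-Rel-/- arrays, and the other 4 were TNF-treated and untreated WT arrays. All cells were C57BL/6 fibroblasts from embryos, immortalized by serial passage, and how many separate lines stand for a genotype is not stated in the texts read here. Both mutants lacked Rela, so neither had RelA. Rela-/-Nfkb2-/- cells also lacked p100 and p52 and kept the genes of RelB and cRel, while Rela-/-Relb-/-Rel-/- cells lacked RelB and cRel and kept Nfkb2. The difference therefore spans 3 genes, and effects of RelB, cRel, p100 with p52 and the cell line itself cannot be told apart.

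NFκB is a family of dimeric transcription factors. RelA, RelB and cRel carry the domains that activate transcription, whereas p50 (from Nfkb1) and p52 (from the Nfkb2 product p100) pair with them. In resting cells IκB proteins hold the dimers in the cytoplasm, and TNF releases them through a kinase that marks IκBα for degradation. p100 can itself act as an IκB-like inhibitor of RelB. Known NFκB targets in fibroblasts include cytokine, chemokine and protease genes and the genes of the IκB proteins, which close a negative feedback loop. TNF also activates MAP kinases, which drive the immediate early genes such as Fos and Egr2 without NFκB.

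Between 11637 and 12599 probes were above background on a mutant array. Of 10 fibroblast markers, 7 were above background on all 8 mutant arrays, whereas the leukocyte markers Ptprc, Itgam and Adgre1, the endothelial markers Pecam1 and Cdh5 and the adipocyte markers Adipoq, Fabp4 and Plin1 were above background on none. The epithelial marker Cdh1 and the endothelial marker Kdr were above background on all 8, and the endothelial marker Tek on 7. A probe of the leukocyte marker Lyz2 was above background on 1, and the epithelial keratin gene Krt18 on none. Several markers separated the lines. Of the fibroblast markers, Pdgfra was at 13.10 to 13.66 in Rela-/-Nfkb2-/- cells and at 7.83 to 8.77 in Rela-/-Relb-/-Rel-/- cells. Pdgfrb was at 8.69 to 10.36 in the former and 5.62 to 6.05 in the latter. Dcn went the other way, at 12.68 to 13.29 in the former and 13.47 to 14.29 in the latter. Thy1, a surface marker of fibroblasts, was at 13.36 to 14.39 in Rela-/-Nfkb2-/- cells and at 5.22 to 5.50, not above background, in Rela-/-Relb-/-Rel-/- cells. Krt8, an epithelial keratin gene, was at 5.08 to 5.18, not above background, in Rela-/-Nfkb2-/- cells and at 10.93 to 11.60 in Rela-/-Relb-/-Rel-/- cells. The part of this difference between the lines in the results was not tested. Of the targeted genes, Rela gave log2 intensities of 10.68 and 10.70 with TNF and 10.80 and 10.28 without it in Rela-/-Nfkb2-/- cells, and 10.75 and 10.05 with TNF and 10.14 and 10.22 without it in Rela-/-Relb-/-Rel-/- cells, while Rel was above background on none of these arrays. Where the probes lie relative to the deleted parts was not tested, and their signals are no test of the genotypes. The sources used here do not say whether the 2 arrays of a group came from separate cultures, and the p-values therefore measure the spread between arrays alone, which may be technical. The SD over features of the difference between replicate arrays was 0.46 and 0.67 in Rela-/-Nfkb2-/- cells with and without TNF, 0.65 and 0.47 in Rela-/-Relb-/-Rel-/- cells with and without TNF, and 0.30 and 0.27 in WT cells with and without TNF. The fit shared 1 estimate of the spread among all 12 arrays. Same-numbered arrays deviated together across the 4 mutant groups, with correlations of 0.63 to 0.85. The highest were crosswise. Untreated Rela-/-Nfkb2-/- with TNF-treated Rela-/-Relb-/-Rel-/- arrays gave 0.85, and TNF-treated Rela-/-Nfkb2-/- with untreated Rela-/-Relb-/-Rel-/- arrays gave 0.79. A fit with a replicate block is set beside the main counts. The block took out a deviation common to same-numbered arrays, and its root mean square SE of the difference was 0.27. The spread of the 2 numbered-pair values of the difference gave 0.44, as did the fit without the block. The SE with the block thus lay below the spread of the difference itself. Its adjusted p-values of the difference are likely too small, and a pass with the block alone is not a call here.

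TNF changed many more features in Rela-/-Nfkb2-/- cells than in Rela-/-Relb-/-Rel-/- cells, and most features whose responses differed had passed the test of TNF in Rela-/-Nfkb2-/- cells alone. The responses differed for 514 features (5.28% of those tested, limma with Benjamini-Hochberg adjusted p under 0.05), of which 139 (1.43%) were higher and 375 (3.85%) lower in Rela-/-Nfkb2-/- cells. The median difference over all features was 0.00. In these bulk cultures fewer cells expressing a gene and less RNA per cell cannot be told apart. With the replicate block shared by the mutant lines, 323 (3.32%) were higher and 641 (6.58%) lower, including 134 of the 139 and 372 of the 375. In a fit of the 8 mutant arrays alone 44 were higher and 149 lower, including 42 of the 139 and 147 of the 375. With arrays scaled to their medians in place of quantile normalization, the median difference of all features moved to -0.35, and the share of higher calls was 11.3% of 362 in place of 27.0% of 514. Leaving out 1 array at a time gave between 205 calls (without Rela-/-Relb-/-Rel-/- untreated replicate 2) and 736 calls (without Rela-/-Relb-/-Rel-/- TNF replicate 2), and all 514 differences kept their sign in each of these 12 fits. TNF itself changed 20.4% of features in Rela-/-Nfkb2-/- cells, where 809 (8.31%) were higher and 1178 (12.1%) lower. It changed 2.33% in Rela-/-Relb-/-Rel-/- cells, where 143 (1.47%) were higher and 84 (0.863%) lower, and 0.709% in WT cells. The WT share cannot be compared with those of the mutants. Features were filtered on mutant arrays only, and the shared spread was applied to WT arrays, whose replicates differed less (SD 0.30 and 0.27). An absolute response of at least 1 on the log2 scale was found for 1225 features in Rela-/-Nfkb2-/- cells and for 314 in Rela-/-Relb-/-Rel-/- cells.

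These responses share their arrays with the difference, so the following split is a description. In it, alone means that the response of the other line did not pass, not that it was absent. Of the 139 features with a higher response, 115 rose in Rela-/-Nfkb2-/- cells and did not pass in Rela-/-Relb-/-Rel-/- cells, 5 rose in both lines, 13 fell in Rela-/-Relb-/-Rel-/- cells alone and 6 passed in neither. Of the 375 with a lower response, 306 fell in Rela-/-Nfkb2-/- cells alone, 34 rose in Rela-/-Relb-/-Rel-/- cells alone, 12 fell in Rela-/-Nfkb2-/- and rose in Rela-/-Relb-/-Rel-/- cells, 3 fell in both, 2 rose in both and 18 passed in neither. No feature rose in Rela-/-Nfkb2-/- and fell in Rela-/-Relb-/-Rel-/- cells. The median response of the 139 was 1.26 in Rela-/-Nfkb2-/- cells and -0.10 in Rela-/-Relb-/-Rel-/- cells, and that of the 375 was -1.69 in Rela-/-Nfkb2-/- cells and 0.07 in Rela-/-Relb-/-Rel-/- cells. All 4 mutant groups were above background on at least 1 array for 83 of the 139 and for 190 of the 375. For 31 of the 139 and 95 of the 375, Rela-/-Relb-/-Rel-/- cells were above background on no array, so a change there could not be read. At the threshold, the last features inside were an unnamed probe at 1.50, Sardh at -1.05 and Hoxa9 at -1.32, and the first outside were Arsg at -1.79, Synm at -1.52 and Gulp1 at -1.46.

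**Figure D1:**
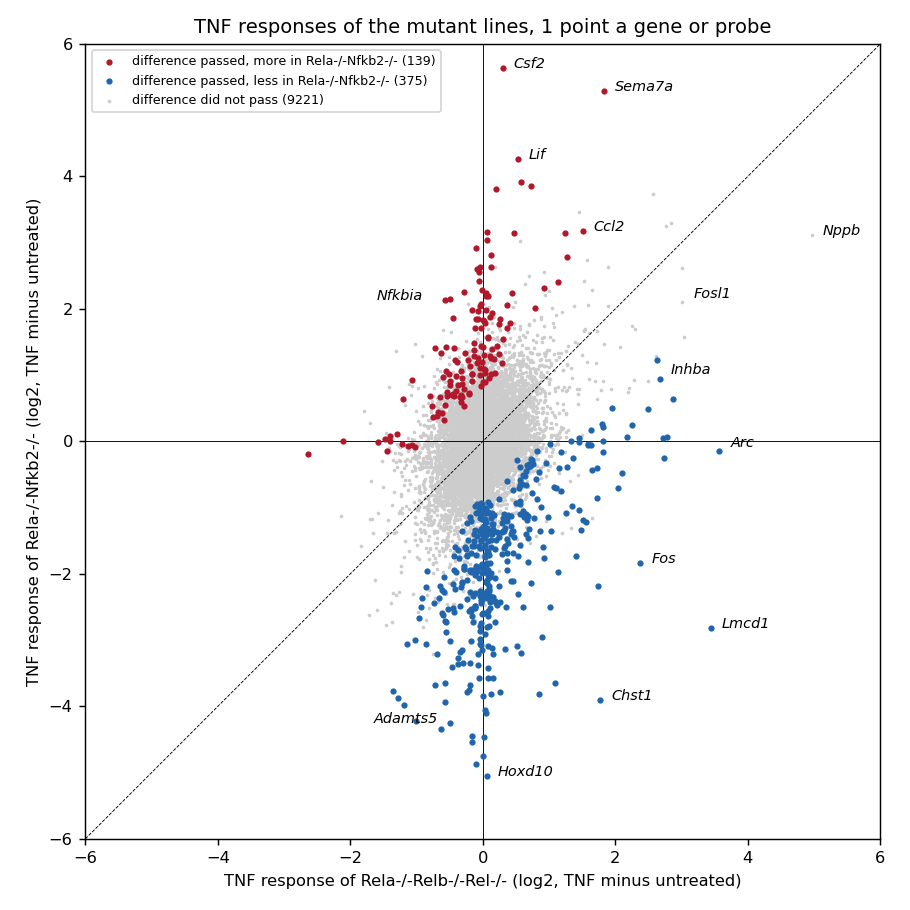
TNF response of Rela-/-Nfkb2-/- cells (vertical, log2 of TNF over untreated) against that of Rela-/-Relb-/-Rel-/- cells (horizontal, same scale), 1 point for each of 9735 features; the dashed line marks equal responses. The 139 features with a higher response in Rela-/-Nfkb2-/- cells (red) and the 375 with a lower one (blue) lie mostly along the vertical axis, while Fos, Lmcd1 and Chst1 lie in the quadrant of a fall in Rela-/-Nfkb2-/- and a rise in Rela-/-Relb-/-Rel-/- cells.

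The genes of the inhibitors that feed back on NFκB did not move together. Of 12 genes of NFκB inhibitors and feedback tested, 2 had a higher response in Rela-/-Nfkb2-/- cells and 1 a lower one, with a median difference of -0.07. Beside this and the list counts below stand 1.43% of all features with a higher response and 3.85% with a lower one. The lists are short, and their counts were not tested against these shares. Nfkbia, the gene of IκBα, had log2 intensities of 12.24 and 11.88 with TNF and 9.90 and 9.93 without it in Rela-/-Nfkb2-/- cells, against 7.39 and 7.49 with TNF and 8.22 and 7.80 without it in Rela-/-Relb-/-Rel-/- cells. Its arrays with TNF lay above the untreated ones in Rela-/-Nfkb2-/- cells and below them in Rela-/-Relb-/-Rel-/- cells. Nfkbia rose 4.41-fold in Rela-/-Nfkb2-/- cells (2.14 ± 0.18 on the log2 scale, SE, n = 2 arrays a group, adjusted p = 1.29e-04, limma), was at -0.57 ± 0.18 in Rela-/-Relb-/-Rel-/- cells (adjusted p = 0.16), and the difference was 2.71 ± 0.26 (adjusted p = 9.43e-04). Nfkbie, which encodes IκBε, had log2 intensities of 9.56 and 9.13 with TNF and 7.71 and 7.41 without it in Rela-/-Nfkb2-/- cells, against 6.07 and 5.81 with TNF and 5.43 and 5.62 without it in Rela-/-Relb-/-Rel-/- cells, where it was above background on 1 of the 4 arrays. It rose 3.44-fold in Rela-/-Nfkb2-/- cells, and the adjusted p of the difference was 0.0275 (limma), which held in 5 of the 12 fits that left out 1 array and became 0.103 without Rela-/-Relb-/-Rel-/- untreated replicate 2. Nfkbiz, the gene of the nuclear IκBζ, went the other way, with 12.30 and 12.41 with TNF and 13.33 and 13.30 without it in Rela-/-Nfkb2-/- cells, against 12.33 and 11.94 with TNF and 11.99 and 12.05 without it in Rela-/-Relb-/-Rel-/- cells. Its difference of -1.07 ± 0.23 (adjusted p = 0.0353, limma) passed in 1 of these 12 fits and had an adjusted p of 0.128 without Rela-/-Nfkb2-/- TNF replicate 1. Relb itself was at 9.46 and 9.16 with TNF and 8.22 and 7.88 without it in Rela-/-Nfkb2-/- cells, and at 6.21 and 5.55 with TNF and 5.59 and 5.54 without it in Rela-/-Relb-/-Rel-/- cells. It rose 2.39-fold in Rela-/-Nfkb2-/- cells (adjusted p = 0.00872, limma). The fitted difference of 0.95 ± 0.35 did not pass (adjusted p = 0.166, and 0.0551 with the replicate block). Relb is deleted in Rela-/-Relb-/-Rel-/- cells, where its probe was above background on 1 array with TNF and 0 untreated arrays. No response could be read there, so nothing is drawn from this difference.

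Promoter sequence was read for the genes that passed in each direction, because both κB sites and AP-1 sites are known to serve TNF-responsive genes. The 250 bases before the start of each gene were taken from RefSeq (GRCm38.p6), which listed a promoter for 97 of the 124 named genes with a higher response and for 256 of the 345 with a lower one. A κB-like match was set as GGG, any 3 bases and then TTCC on either strand, and an AP-1-like match as TGANTCA, which reads as the same pattern on both strands. The κB-like match was found in 5.15% of the promoters with a higher response, in 5.86% of those with a lower response and in 4.83% of those of all genes tested. The AP-1-like match was found in 10.3% of the promoters with a higher response (10 genes), in 7.03% of those with a lower response and in 4.69% of those of all genes tested, against 6.87% of all promoters listed. These are counts of letters in a short window, and sites outside it were not tested. The promoters printed here and below all held a match and do not stand for the rest. Those of Csf2, Lif, Traf1, Sema7a and Mmp10 held no κB-like match, while those of Sphk1 and Tlr2, with lower responses, each held 1. The promoters of both IκB genes with a higher response are shown with the κB-like match in capitals, which began 29 bases before the start of Nfkbia (chr12:55492648-55492897, minus strand) and 106 bases before that of Nfkbie (chr17:45555450-45555699, plus strand). The window of Nfkbie also held 1 AP-1-like match, TGAGTCA, left in lower case.
Nfkbia: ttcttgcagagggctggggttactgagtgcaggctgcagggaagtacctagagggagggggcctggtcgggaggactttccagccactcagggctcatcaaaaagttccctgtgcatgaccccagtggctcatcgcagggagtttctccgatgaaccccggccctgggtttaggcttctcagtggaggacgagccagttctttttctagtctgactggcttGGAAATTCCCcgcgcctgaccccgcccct
Nfkbie: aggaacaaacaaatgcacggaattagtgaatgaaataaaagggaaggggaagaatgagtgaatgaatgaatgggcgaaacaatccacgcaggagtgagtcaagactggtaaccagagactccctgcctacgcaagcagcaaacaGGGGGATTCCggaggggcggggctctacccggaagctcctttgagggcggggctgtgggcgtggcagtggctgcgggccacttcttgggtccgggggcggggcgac

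Of 14 TNF receptors and adaptors tested, 1 had a higher response in Rela-/-Nfkb2-/- cells and 1 a lower one, with a median of -0.09. Traf1, which encodes an adaptor that counters cell death downstream of TNF receptors, was at 7.82 and 7.43 with TNF and 5.00 and 5.03 without it in Rela-/-Nfkb2-/- cells, against 4.85 and 4.88 with TNF and 5.08 and 4.83 without it in Rela-/-Relb-/-Rel-/- cells. Both Rela-/-Nfkb2-/- arrays with TNF were above background and none of the other 6 mutant arrays was. Traf1 was at least 3.60-fold higher with TNF in Rela-/-Nfkb2-/- cells, and the adjusted p of the difference was 0.00101 (limma), which passed in all 12 fits without 1 array. Tnfrsf11b, the gene of the decoy receptor osteoprotegerin, was at 12.36 and 12.23 with TNF and 13.22 and 13.10 without it in Rela-/-Nfkb2-/- cells, and at 10.11 and 9.74 with TNF and 9.31 and 8.89 without it in Rela-/-Relb-/-Rel-/- cells. Its difference was -1.69 ± 0.30 (adjusted p = 0.0162, limma), with an adjusted p of 0.0652 without Rela-/-Relb-/-Rel-/- untreated replicate 2. Among 11 pro-survival factors Traf1 was the only one that passed. Bcl2, a repressor of mitochondrial cell death, had a difference of -1.62 ± 0.47 that did not pass (adjusted p = 0.0866, limma). Its adjusted p was 0.0376 with the replicate block and 0.197 in the fit of the 8 mutant arrays. Birc2, the gene of cIAP1, had a difference of 0.41 ± 0.25 (adjusted p = 0.387). Other kept probes of Bcl2 did not agree in Rela-/-Nfkb2-/- cells. ILMN_2682162 was higher with TNF (7.37 and 6.90, against 6.38 and 5.93 untreated). ILMN_2706514 (6.77 and 6.75, against 8.46 and 7.38) and, within each numbered pair, ILMN_1249021 (6.13 and 7.75, against 6.77 and 8.39) were lower. Of 19 death receptor, BH3 and caspase genes, 1 passed, near the 5.28% of all features, and the median was -0.14. Bmf, the gene of a pro-death BH3 protein, was at least 3.93-fold lower with TNF in Rela-/-Nfkb2-/- cells, where it was at 5.61 and 5.58 with TNF and 8.33 and 7.60 without it, against 5.82 and 5.80 with TNF and 6.60 and 6.33 without it in Rela-/-Relb-/-Rel-/- cells. The difference of Bmf had an adjusted p of 0.0194 (limma), and of 0.081 without Rela-/-Relb-/-Rel-/- untreated replicate 2. The initiator caspase gene Casp8 was at 0.83 ± 0.22 and did not pass (adjusted p = 0.0668, limma). Its adjusted p was 0.0451 with the replicate block and 0.184 in the fit of the 8 mutant arrays. Parp1, which encodes an enzyme of DNA repair, was at -0.02 ± 0.23 (adjusted p = 0.977), with a 95% interval of -0.54 to 0.50.

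Secreted cytokines held the largest higher responses. Of 11 cytokine and colony-stimulating factor genes tested, 3 had a higher response in Rela-/-Nfkb2-/- cells and 1 a lower one, although the median was -0.74. Csf2, the gene of the colony-stimulating factor GM-CSF, was at 10.64 and 10.47 with TNF and 4.93 and 4.91 without it in Rela-/-Nfkb2-/- cells, against 5.03 and 5.34 with TNF and 4.92 and 4.84 without it in Rela-/-Relb-/-Rel-/- cells. Csf2 was thus high on both Rela-/-Nfkb2-/- arrays with TNF and above background on no other mutant array. It was at least 27.4-fold higher with TNF in Rela-/-Nfkb2-/- cells, and the adjusted p of the difference was 3.31e-04 (limma). Lif, the gene of leukemia inhibitory factor, a relative of interleukin-6, was measured in every group, at 12.11 and 11.46 with TNF and 7.57 and 7.47 without it in Rela-/-Nfkb2-/- cells, against 8.78 and 8.58 with TNF and 8.49 and 7.81 without it in Rela-/-Relb-/-Rel-/- cells. The untreated level of Lif was lower in Rela-/-Nfkb2-/- cells and the level with TNF was higher there. Lif rose 19.2-fold in Rela-/-Nfkb2-/- cells, was at 0.53 ± 0.27 on the log2 scale in Rela-/-Relb-/-Rel-/- cells (adjusted p = 0.388), and the difference was 3.74 ± 0.38 (adjusted p = 0.00119, limma). Il23a, which encodes a subunit of interleukin-23, was at 6.53 and 6.50 with TNF and 5.59 and 5.71 without it in Rela-/-Nfkb2-/- cells, against 5.55 and 5.36 with TNF and 5.83 and 5.71 without it in Rela-/-Relb-/-Rel-/- cells. It was at least 1.66-fold higher with TNF in Rela-/-Nfkb2-/- cells, with an adjusted p of the difference of 0.0125 (limma) and of 0.0572 without Rela-/-Relb-/-Rel-/- untreated replicate 1. The lower response was that of Il1rn, the gene of the interleukin-1 receptor antagonist, at 5.41 and 5.25 with TNF and 9.49 and 8.75 without it in Rela-/-Nfkb2-/- cells, against 6.26 and 5.36 with TNF and 5.58 and 5.52 without it in Rela-/-Relb-/-Rel-/- cells. It was at least 8.75-fold lower with TNF in Rela-/-Nfkb2-/- cells, and the adjusted p of the difference was 0.00295 (limma).

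Of 6 CC chemokine genes tested, 1 had a higher response in Rela-/-Nfkb2-/- cells and none a lower one, 5 differences were above 0 and the median was 1.34. Ccl2, the gene of a monocyte attractant, was at 12.53 and 12.73 with TNF and 9.23 and 9.67 without it in Rela-/-Nfkb2-/- cells, against 7.30 and 7.75 with TNF and 5.72 and 6.31 without it in Rela-/-Relb-/-Rel-/- cells. It rose in both lines, 9.07-fold in Rela-/-Nfkb2-/- cells and 2.85-fold in Rela-/-Relb-/-Rel-/- cells. The difference of 1.67 ± 0.35 (adjusted p = 0.0288, limma) passed in 3 of the 12 fits without 1 array, and had an adjusted p of 0.0986 without Rela-/-Nfkb2-/- TNF replicate 2. Ccl5, the gene of RANTES, was at 11.95 and 12.45 with TNF and 8.47 and 9.88 without it in Rela-/-Nfkb2-/- cells, and not detected on any Rela-/-Relb-/-Rel-/- array. Its difference did not pass (adjusted p = 0.054, and 0.137 in the fit of the 8 mutant arrays, limma). The adjusted p of 0.021 with the replicate block rests on the smaller SE of that fit. Among 7 CXC and CX3C chemokine genes, Cxcl16, which encodes a membrane-bound chemokine, had a higher response. It was at 8.83 and 8.62 with TNF and 5.89 and 5.48 without it in Rela-/-Nfkb2-/- cells, where it rose 8.27-fold, and above background on no Rela-/-Relb-/-Rel-/- array (adjusted p of the difference 0.00198, limma). Cxcl10, the gene of IP-10, also was above background on no Rela-/-Relb-/-Rel-/- array and did not pass (adjusted p = 0.404).

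**Figure D2:**
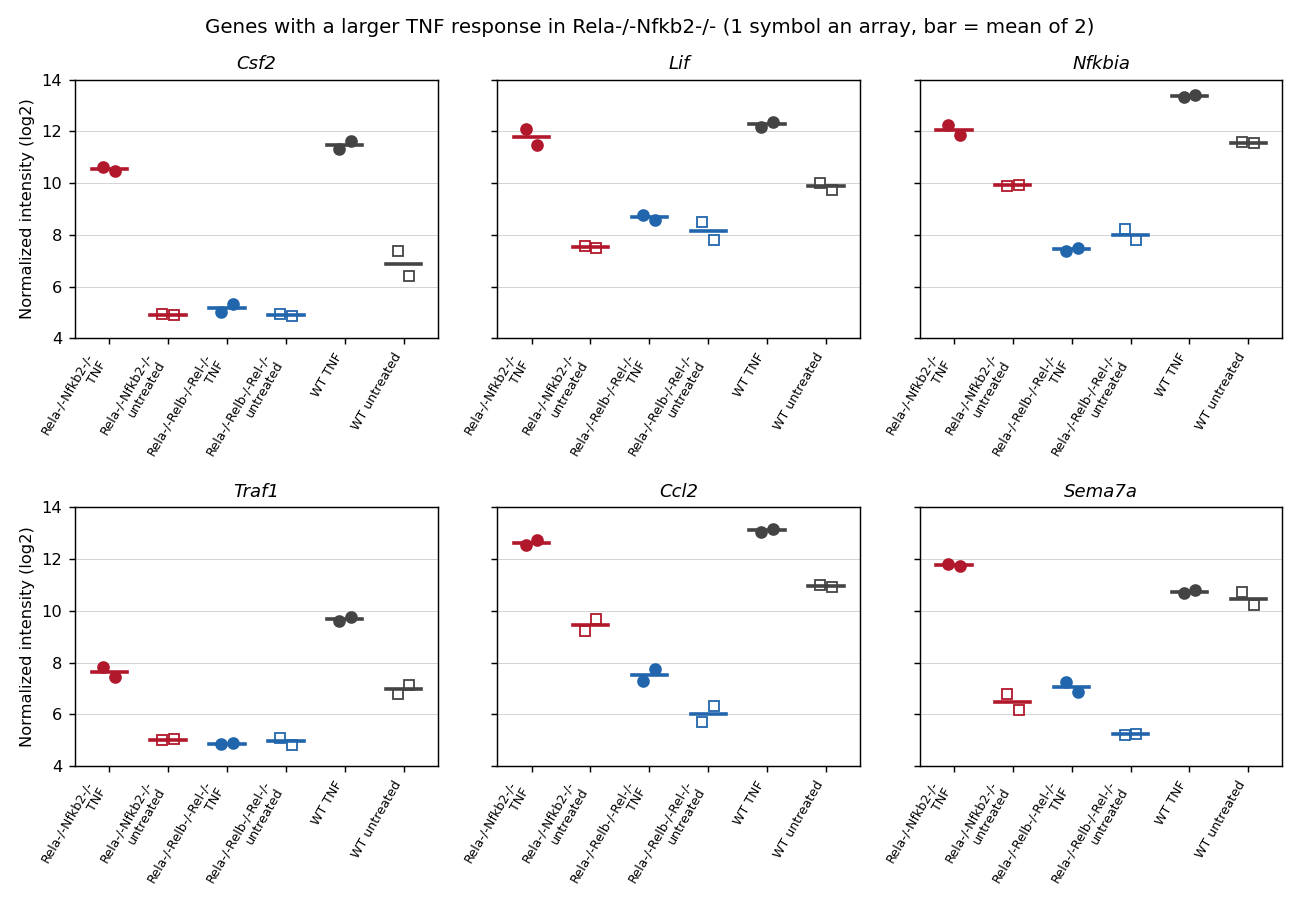
Normalized log2 intensity of Csf2, Lif, Nfkbia, Traf1, Ccl2 and Sema7a on each array (symbols) with the mean of the 2 arrays of a group (bars); circles are TNF-treated and squares untreated cells. In Rela-/-Nfkb2-/- cells both arrays with TNF lie above both untreated arrays for all 6 genes, while in Rela-/-Relb-/-Rel-/- cells the TNF arrays lie below the untreated ones for Nfkbia, and Csf2 and Traf1 are at background on all 4 arrays.

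Single protease and growth factor genes also differed, in both directions. Of 14 matrix metalloproteinases and inhibitors tested, 2 had a higher response in Rela-/-Nfkb2-/- cells and 1 a lower one (median 0.37). Mmp10, the gene of stromelysin-2, was at 11.41 and 11.03 with TNF and 7.68 and 6.94 without it in Rela-/-Nfkb2-/- cells, against 5.86 and 5.40 with TNF and 5.04 and 5.06 without it in Rela-/-Relb-/-Rel-/- cells. It was detected on a single Rela-/-Relb-/-Rel-/- array, rose 15.1-fold in Rela-/-Nfkb2-/- cells, and had an adjusted p of the difference of 0.00595 (limma). Mmp9, the gene of gelatinase B, was at 11.40 and 11.58 with TNF and 8.37 and 8.31 without it in Rela-/-Nfkb2-/- cells, against 7.03 and 6.20 with TNF and 6.16 and 6.12 without it in Rela-/-Relb-/-Rel-/- cells. Its difference of 2.68 ± 0.63 (adjusted p = 0.0454, limma) passed in 2 of the 12 fits without 1 array, with an adjusted p of 0.135 without Rela-/-Relb-/-Rel-/- untreated replicate 1. Mmp17, which encodes a membrane-anchored protease, was at least 2.00-fold lower with TNF in Rela-/-Nfkb2-/- cells (adjusted p of the difference 0.0267, and 0.104 without Rela-/-Relb-/-Rel-/- untreated replicate 1). Of 13 EGF ligands and angiogenic growth factors tested, 1 had a higher response in Rela-/-Nfkb2-/- cells and 1 a lower one (median 0.10). Pdgfb, which encodes a chain of platelet-derived growth factor, was at 11.39 and 10.98 with TNF and 8.23 and 7.86 without it in Rela-/-Nfkb2-/- cells, against 9.58 and 9.50 with TNF and 8.49 and 8.10 without it in Rela-/-Relb-/-Rel-/- cells. It rose 8.82-fold in Rela-/-Nfkb2-/- cells, and the difference of 1.90 ± 0.40 (adjusted p = 0.0296, limma) had an adjusted p of 0.113 without Rela-/-Relb-/-Rel-/- untreated replicate 1. Hbegf, the gene of an EGF receptor ligand of the same list of 13 growth factors, rose in both lines, by 2.63 ± 0.18 in Rela-/-Nfkb2-/- cells and 1.90 ± 0.18 in Rela-/-Relb-/-Rel-/- cells on the log2 scale, and its difference did not pass (adjusted p = 0.141). By contrast Angpt1, which encodes a ligand of the endothelial receptor Tie2, was at 5.06 and 5.10 with TNF and 8.27 and 8.05 without it in Rela-/-Nfkb2-/- cells, at least 4.50-fold lower, and above background on no Rela-/-Relb-/-Rel-/- array (adjusted p of the difference 1.79e-04). The promoters of Mmp10 (chr9:7502092-7502341, plus strand) and Lif (chr11:4257318-4257567, plus strand) each held an AP-1-like match, shown in capitals, which began 63 and 228 bases before the start of the gene.
Mmp10: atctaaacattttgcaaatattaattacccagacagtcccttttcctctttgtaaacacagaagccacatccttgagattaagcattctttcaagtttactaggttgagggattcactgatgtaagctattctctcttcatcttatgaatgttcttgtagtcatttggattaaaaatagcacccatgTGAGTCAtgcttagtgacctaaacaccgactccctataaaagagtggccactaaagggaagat
Lif: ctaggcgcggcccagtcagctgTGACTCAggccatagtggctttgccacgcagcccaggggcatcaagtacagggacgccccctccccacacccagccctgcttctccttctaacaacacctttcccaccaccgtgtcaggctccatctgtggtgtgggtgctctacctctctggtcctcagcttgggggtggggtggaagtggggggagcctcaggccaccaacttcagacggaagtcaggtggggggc

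Outside the inflammatory lists, the genes with the largest higher responses had varied roles. Sema7a, which encodes a membrane-anchored semaphorin, was at 11.82 and 11.72 with TNF and 6.78 and 6.17 without it in Rela-/-Nfkb2-/- cells, against 7.23 and 6.86 with TNF and 5.21 and 5.24 without it in Rela-/-Relb-/-Rel-/- cells. It rose in both lines, 39.3-fold in Rela-/-Nfkb2-/- cells and at least 2.20-fold in Rela-/-Relb-/-Rel-/- cells (adjusted p of the difference 0.00108, limma). Acpp, the gene of prostatic acid phosphatase, was at 10.79 and 10.81 with TNF and 7.84 and 7.45 without it in Rela-/-Nfkb2-/- cells, an 8.92-fold rise, and above background on no Rela-/-Relb-/-Rel-/- array (adjusted p of the difference 0.00119). Fam110c and Uchl1 were different in that Rela-/-Relb-/-Rel-/- cells held the higher levels. Fam110c was at 11.00 and 10.75 with TNF and 8.44 and 7.68 without it in Rela-/-Nfkb2-/- cells, against 11.64 and 11.06 with TNF and 11.29 and 11.17 without it in Rela-/-Relb-/-Rel-/- cells. The difference of Fam110c was 2.69 ± 0.46 (adjusted p = 0.0126, and 0.0542 without Rela-/-Nfkb2-/- TNF replicate 1). Uchl1, which encodes a ubiquitin hydrolase best known from neurons, was at 9.47 and 9.49 with TNF and 7.21 and 7.45 without it in Rela-/-Nfkb2-/- cells, against 10.79 and 11.57 with TNF and 11.78 and 11.56 without it in Rela-/-Relb-/-Rel-/- cells (difference 2.64 ± 0.34, adjusted p = 0.0037). Thus TNF brought both genes in Rela-/-Nfkb2-/- cells toward, but not above, the mean level of TNF-treated Rela-/-Relb-/-Rel-/- cells. The remaining genes with the largest measured higher responses were Tmcc3 (2.53 ± 0.31), Dock4, the gene of an activator of Rac (2.31 ± 0.39), the transcription factor gene Klf5 (2.15 ± 0.35) and Ap2a1, the gene of a subunit of the endocytic adaptor AP-2 (2.13 ± 0.46). Of these Tmcc3 passed in all 12 fits without 1 array, Dock4 had an adjusted p of 0.0518 and Klf5 of 0.0513 without Rela-/-Relb-/-Rel-/- untreated replicate 1, and Ap2a1 one of 0.119 without Rela-/-Nfkb2-/- TNF replicate 1.

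Of 14 oxidative and metal stress genes tested, 2 had a higher response in Rela-/-Nfkb2-/- cells and 1 a lower one, 12 differences were above 0 and the median was 0.88. Gclm, which encodes a subunit of the rate-limiting enzyme of glutathione synthesis, was at 11.98 and 12.31 with TNF and 9.36 and 10.37 without it in Rela-/-Nfkb2-/- cells, against 9.59 and 10.16 with TNF and 9.77 and 10.02 without it in Rela-/-Relb-/-Rel-/- cells. Its groups overlapped in Rela-/-Relb-/-Rel-/- cells and not in Rela-/-Nfkb2-/- cells, and the difference was 2.30 ± 0.46 (adjusted p = 0.0252, and 0.0932 without Rela-/-Relb-/-Rel-/- untreated replicate 2). Srxn1, the gene of sulfiredoxin, which repairs oxidized peroxiredoxins, rose in both lines, 5.29-fold in Rela-/-Nfkb2-/- cells and 2.19-fold in Rela-/-Relb-/-Rel-/- cells (difference 1.27 ± 0.26, adjusted p = 0.0272, and 0.107 without Rela-/-Relb-/-Rel-/- untreated replicate 1). Osgin1, an oxidative stress-induced growth inhibitor gene, had the lower response (-1.04 ± 0.20, adjusted p = 0.0213, and 0.0923 without Rela-/-Relb-/-Rel-/- untreated replicate 1). Of 21 ribosome biogenesis genes, Rrp9, whose product acts on small nucleolar RNA complexes, passed (1.39 ± 0.28, adjusted p = 0.0244, and 0.0974 without Rela-/-Nfkb2-/- TNF replicate 1), 15 differences were above 0 and the median was 0.45. With arrays scaled to their medians the median difference of all features was -0.35, and the adjusted p of Srxn1 became 0.264 and that of Rrp9 0.182.

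Apart from Jun, the immediate early and AP-1 family genes of these lists with a different response had a lower one in Rela-/-Nfkb2-/- cells. Of 17 Egr, Nr4a and other immediate early genes tested, none had a higher and 3 a lower response (Arc, Klf2 and Id1; median -0.66). Within the list, 3 genes rose and 2 fell with TNF in Rela-/-Nfkb2-/- cells, whereas Rela-/-Relb-/-Rel-/- cells had 6 that rose and none that fell. Of 10 AP-1 family genes, 1 had a higher and 2 a lower response (median -0.65). Fos, which encodes a subunit of the AP-1 transcription factor, was at 6.34 and 7.28 with TNF and 8.74 and 8.54 without it in Rela-/-Nfkb2-/- cells, against 10.92 and 11.69 with TNF and 8.45 and 9.40 without it in Rela-/-Relb-/-Rel-/- cells. The untreated arrays of both lines overlapped, whereas with TNF the lines lay far apart. Fos fell 3.56-fold in Rela-/-Nfkb2-/- cells (adjusted p = 0.0186, limma), rose 5.21-fold in Rela-/-Relb-/-Rel-/- cells (adjusted p = 0.0306), and the difference was -4.21 ± 0.62 (adjusted p = 0.00664). Atf3, the gene of a stress-induced partner of AP-1, was at 7.53 and 7.76 with TNF and 8.16 and 7.64 without it in Rela-/-Nfkb2-/- cells, against 9.79 and 9.30 with TNF and 7.07 and 6.56 without it in Rela-/-Relb-/-Rel-/- cells. Its difference was -2.98 ± 0.39 (adjusted p = 0.00386). Arc, the gene of a cytoskeletal protein first known from active neurons, was at 8.05 and 7.28 with TNF and 8.06 and 7.57 without it in Rela-/-Nfkb2-/- cells, against 9.86 and 9.06 with TNF and 5.95 and 5.83 without it in Rela-/-Relb-/-Rel-/- cells. Arc was above background on neither untreated Rela-/-Relb-/-Rel-/- array, was at least 11.7-fold higher with TNF there, and had an adjusted p of the difference of 0.0027. Fos, Atf3 and Arc passed in all 12 fits without 1 array.

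Other genes of these lists moved less. Jun, which encodes the main partner of Fos, had a higher response, with 11.47 and 11.21 with TNF and 9.94 and 10.10 without it in Rela-/-Nfkb2-/- cells, against 10.54 and 10.56 with TNF and 10.36 and 10.25 without it in Rela-/-Relb-/-Rel-/- cells. The difference of Jun, 1.08 ± 0.24 (adjusted p = 0.0396, limma), passed in 1 of the 12 fits without 1 array and had an adjusted p of 0.143 without Rela-/-Nfkb2-/- TNF replicate 1 and of 0.321 with arrays scaled to their medians. Egr2 rose in both lines, 2.98-fold in Rela-/-Nfkb2-/- cells and 8.19-fold in Rela-/-Relb-/-Rel-/- cells. Its difference of -1.46 ± 0.40 did not pass (adjusted p = 0.0737, limma). The adjusted p was 0.0145 with the replicate block and 0.0579 in the fit of the 8 mutant arrays. The zinc finger gene Klf2 fell 2.49-fold in Rela-/-Nfkb2-/- cells and was at 0.15 ± 0.16 on the log2 scale in Rela-/-Relb-/-Rel-/- cells (difference -1.47 ± 0.23, adjusted p = 0.00824). Among 11 MAP kinase phosphatases and Sprouty feedback genes, which restrain this pathway, 6 rose in Rela-/-Nfkb2-/- cells, 4 rose in Rela-/-Relb-/-Rel-/- cells, while Dusp1 alone passed the test of the difference. Dusp1 was at 11.84 and 11.85 with TNF and 11.86 and 11.92 without it in Rela-/-Nfkb2-/- cells, against 12.53 and 12.96 with TNF and 11.10 and 11.23 without it in Rela-/-Relb-/-Rel-/- cells (difference -1.63 ± 0.28, adjusted p = 0.0123, and 0.0546 without Rela-/-Relb-/-Rel-/- untreated replicate 1). Dusp6 rose in both lines, by 0.91 ± 0.15 in Rela-/-Nfkb2-/- cells and 1.70 ± 0.15 in Rela-/-Relb-/-Rel-/- cells on the log2 scale (difference -0.79 ± 0.21, adjusted p = 0.0697). Sphk1, the gene of a kinase that makes sphingosine 1-phosphate, was at 11.92 and 11.81 with TNF and 12.05 and 11.53 without it in Rela-/-Nfkb2-/- cells, against 11.13 and 10.43 with TNF and 8.15 and 7.85 without it in Rela-/-Relb-/-Rel-/- cells (difference -2.71 ± 0.45, adjusted p = 0.0112, and 0.0522 without Rela-/-Relb-/-Rel-/- untreated replicate 2). Inhba, which encodes the activin A subunit, rose in both lines and by more in Rela-/-Relb-/-Rel-/- cells, 1.92-fold in Rela-/-Nfkb2-/- against 6.39-fold in Rela-/-Relb-/-Rel-/- cells (difference -1.74 ± 0.24, adjusted p = 0.00419). The untreated levels of Atf3, Arc, Egr2, Fosl1, Dusp1, Dusp6, Sphk1 and Inhba were lower in Rela-/-Relb-/-Rel-/- than in Rela-/-Nfkb2-/- cells on all arrays, and the part of these levels in the difference was not tested.

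**Figure D3:**
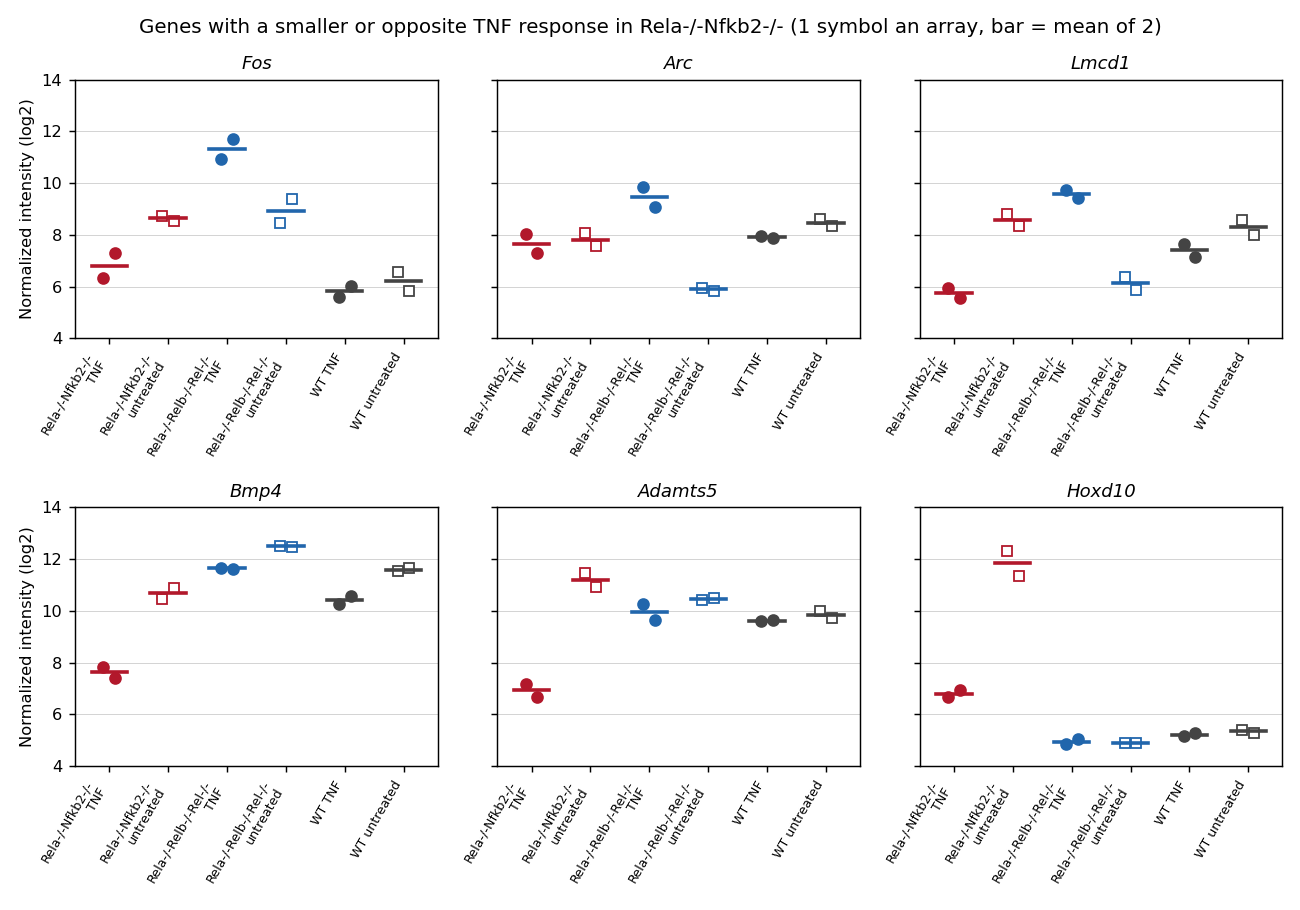
Normalized log2 intensity of Fos, Arc, Lmcd1, Bmp4, Adamts5 and Hoxd10 on each array (symbols) with the mean of the 2 arrays of a group (bars); circles are TNF-treated and squares untreated cells. Fos and Lmcd1 lie lower with TNF in Rela-/-Nfkb2-/- and higher with TNF in Rela-/-Relb-/-Rel-/- cells, and Bmp4, Adamts5 and Hoxd10 show their main fall in Rela-/-Nfkb2-/- cells.

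Besides Fos, 11 features passed in opposite directions in the lines, all with a fall in Rela-/-Nfkb2-/- and a rise in Rela-/-Relb-/-Rel-/- cells, and 9 of them were named genes. Lmcd1, which encodes a LIM domain regulator of transcription, was at 5.96 and 5.56 with TNF and 8.82 and 8.33 without it in Rela-/-Nfkb2-/- cells, against 9.74 and 9.41 with TNF and 6.38 and 5.88 without it in Rela-/-Relb-/-Rel-/- cells. It was at least 6.00-fold lower with TNF in Rela-/-Nfkb2-/- cells, 10.9-fold higher with TNF in Rela-/-Relb-/-Rel-/- cells, and had an adjusted p of the difference of 1.67e-04 (limma). Chst1, the gene of a sulfotransferase of keratan sulfate chains, was at 5.46 and 6.15 with TNF and 9.56 and 9.86 without it in Rela-/-Nfkb2-/- cells, against 7.95 and 7.46 with TNF and 5.86 and 6.00 without it in Rela-/-Relb-/-Rel-/- cells. The difference of Chst1 was -5.67 ± 0.35 (adjusted p = 1.19e-04). For both genes the levels of Rela-/-Nfkb2-/- cells with TNF lay near those of untreated Rela-/-Relb-/-Rel-/- cells, but also near background. With TNF, Lmcd1 was above background on 0 Rela-/-Nfkb2-/- arrays and Chst1 on 1. Chst1 was also above it on only 1 untreated Rela-/-Relb-/-Rel-/- array. Such low levels are hard to tell apart, and the size of the Chst1 difference rests partly on them. Rem2, the gene of a small GTPase that binds calcium channels, fell 4.56-fold in Rela-/-Nfkb2-/- and rose 3.32-fold in Rela-/-Relb-/-Rel-/- cells (difference -3.92 ± 0.36, adjusted p = 7.54e-04). Fgf10, the gene of a growth factor that mesenchyme sends to epithelium, was at 7.39 and 7.27 with TNF and 10.03 and 9.62 without it in Rela-/-Nfkb2-/- cells, against 11.37 and 10.89 with TNF and 10.10 and 10.14 without it in Rela-/-Relb-/-Rel-/- cells (difference -3.51 ± 0.30, adjusted p = 6.48e-04). The other 5 named genes, given because the count is small, were the circadian clock gene Per2 (-3.14 ± 0.39), the angiopoietin gene Angpt2 (-2.78 ± 0.43), the sulfatase gene Arsj (-1.93 ± 0.31), the ceramidase gene Acer2 (-1.78 ± 0.30, a fitted value with TNF-treated Rela-/-Nfkb2-/- cells at background) and Kdelr3, which encodes a receptor that returns proteins to the endoplasmic reticulum (-1.31 ± 0.19). Of the named genes in this paragraph, Acer2 alone lost its call when 1 array was left out, with an adjusted p of 0.0545 without Rela-/-Relb-/-Rel-/- untreated replicate 2. In the fit of the 8 mutant arrays Angpt2 had an adjusted p of 0.0527 and Arsj of 0.0569.

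The largest group of differences came from genes whose fall passed in Rela-/-Nfkb2-/- cells alone. Adamts5, the gene of an aggrecan-cleaving protease, was at 7.19 and 6.68 with TNF and 11.45 and 10.92 without it in Rela-/-Nfkb2-/- cells, against 10.27 and 9.65 with TNF and 10.42 and 10.50 without it in Rela-/-Relb-/-Rel-/- cells. It fell by 4.25 ± 0.27 on the log2 scale in Rela-/-Nfkb2-/- cells, was at -0.50 ± 0.27 on the log2 scale in Rela-/-Relb-/-Rel-/- cells (adjusted p = 0.408), and the difference was -3.75 ± 0.38 (adjusted p = 0.00115, limma). Rasl11a, which encodes a Ras-like GTPase, was at 6.98 and 6.76 with TNF and 11.37 and 10.83 without it in Rela-/-Nfkb2-/- cells, against 9.63 and 8.87 with TNF and 10.43 and 10.08 without it in Rela-/-Relb-/-Rel-/- cells (difference -3.22 ± 0.40, adjusted p = 0.00288). Rasl11a was also lower with TNF in Rela-/-Relb-/-Rel-/- cells, at -1.01 ± 0.28 on the log2 scale (adjusted p = 0.115, and 0.0245 with the replicate block, limma). Adamts5 and Rasl11a were thus well expressed in both untreated lines. Nrn1, the gene of the membrane-anchored protein neuritin, and Deptor, the gene of an inhibitor of the kinase mTOR, were instead high in untreated Rela-/-Nfkb2-/- cells. Nrn1 was at 9.33 and 9.31 with TNF and 12.38 and 12.69 without it in Rela-/-Nfkb2-/- cells, against 7.37 and 6.54 with TNF and 6.76 and 6.83 without it in Rela-/-Relb-/-Rel-/- cells (difference -3.37 ± 0.38, adjusted p = 0.00179). Deptor was at 6.28 and 6.22 with TNF and 9.80 and 9.46 without it in Rela-/-Nfkb2-/- cells, against 6.77 and 6.24 with TNF and 6.72 and 6.42 without it in Rela-/-Relb-/-Rel-/- cells (difference -3.31 ± 0.30, adjusted p = 6.48e-04). With TNF, Deptor reached the level of Rela-/-Relb-/-Rel-/- cells, which lay near background. Arap3 had a difference of -4.66 ± 0.65 (adjusted p = 0.00508), and Aoc3, which encodes the amine oxidase VAP-1, one of -3.51 ± 0.63 (adjusted p = 0.016, and 0.0654 without Rela-/-Relb-/-Rel-/- untreated replicate 2).

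Where Rela-/-Relb-/-Rel-/- cells were above background on no array, the difference records the fall in Rela-/-Nfkb2-/- cells alone. Slc5a7, the gene of the choline transporter of neurons, was at 4.92 and 5.09 with TNF and 9.95 and 9.55 without it in Rela-/-Nfkb2-/- cells, at least 13.5-fold lower (adjusted p of the difference 2.22e-05, limma). Smoc1, which encodes a matrix protein that antagonizes bone morphogenetic proteins (BMPs), was at 6.36 and 5.98 with TNF and 11.20 and 10.90 without it in Rela-/-Nfkb2-/- cells, a 29.4-fold fall (adjusted p of the difference 2.46e-04). Hoxd10, a homeobox gene of limb patterning, was at 6.65 and 6.93 with TNF and 12.32 and 11.36 without it in Rela-/-Nfkb2-/- cells, a 33.2-fold fall (adjusted p of the difference 3.15e-04). These 3 genes were strongly expressed in untreated Rela-/-Nfkb2-/- cells, and Slc5a7 and Hoxd10 were above background on no WT array either.

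Among 21 genes of the TGF-β and BMP pathway tested, none had a higher and 4 a lower response in Rela-/-Nfkb2-/- cells (median -0.23), namely Inhba, Bmp4, Chrd and Id1. Bmp4, the gene of a BMP ligand, was at 7.82 and 7.41 with TNF and 10.46 and 10.90 without it in Rela-/-Nfkb2-/- cells, against 11.65 and 11.63 with TNF and 12.51 and 12.49 without it in Rela-/-Relb-/-Rel-/- cells. TNF arrays lay below untreated arrays in both lines, but the fall passed only the test in Rela-/-Nfkb2-/- cells (8.37-fold, adjusted p = 3.49e-05, against -0.86 ± 0.20 on the log2 scale and adjusted p = 0.0693 in Rela-/-Relb-/-Rel-/- cells), with a difference of -2.21 ± 0.28 (adjusted p = 0.00358, limma). Chrd, which encodes the BMP antagonist chordin, had a difference of -1.66 ± 0.38 (adjusted p = 0.0422, and 0.126 without Rela-/-Nfkb2-/- TNF replicate 2), and Id1, a classical BMP target gene, one of -1.22 ± 0.27 (adjusted p = 0.0353, and 0.12 without Rela-/-Relb-/-Rel-/- untreated replicate 1). Of 12 complement and acute phase genes, none had a higher and 2 a lower response (median -0.62). C4b, a complement component gene, was at 7.40 and 6.94 with TNF and 9.94 and 9.87 without it in Rela-/-Nfkb2-/- cells, against 6.87 and 6.66 with TNF and 6.66 and 6.51 without it in Rela-/-Relb-/-Rel-/- cells (difference -2.92 ± 0.39, adjusted p = 0.00403). The acute phase gene Orm1 was at least 3.60-fold lower with TNF in Rela-/-Nfkb2-/- cells (adjusted p of the difference 0.00692) and above background on no Rela-/-Relb-/-Rel-/- array. Of 9 pattern recognition receptor genes 2 had a lower response, Tlr2, the gene of a receptor of bacterial lipoproteins, and Irak3, the gene of an inhibitor of its signalling. Tlr2 was at 8.71 and 8.55 with TNF and 10.71 and 10.26 without it in Rela-/-Nfkb2-/- cells, against 7.95 and 7.06 with TNF and 7.60 and 7.45 without it in Rela-/-Relb-/-Rel-/- cells (difference -1.84 ± 0.39, adjusted p = 0.0306, and 0.104 without Rela-/-Relb-/-Rel-/- untreated replicate 2). Irak3 had a difference of -1.51 ± 0.27 (adjusted p = 0.016, and 0.07 without Rela-/-Relb-/-Rel-/- untreated replicate 1). Selp, which encodes the adhesion molecule P-selectin, was at 5.01 and 5.09 with TNF and 8.68 and 7.69 without it in Rela-/-Nfkb2-/- cells, against 10.92 and 10.86 with TNF and 10.71 and 10.40 without it in Rela-/-Relb-/-Rel-/- cells. It was at least 4.57-fold lower with TNF in Rela-/-Nfkb2-/- cells, and the adjusted p of the difference was 0.00201.

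Several lists gave few or no differences. Of all features tested 5.28% passed, and at that share lists this short would hold few calls. None of 26 interferon-stimulated genes passed (median -0.27), and none of 11 genes of antigen presentation by MHC class I (median 0.24), of 17 ER stress and ATF4 targets (0.16), of 13 p53 targets (0.32), of 13 sterol pathway genes (0.25), of 13 SRF and YAP targets (0.03), of 18 collagens and structural matrix genes (0.22) or of 7 mRNA decay regulators (-0.12) did. At an unadjusted p under 0.05 there were 17 of these 118 list entries (14.4%), against 2077 of all 9735 features (21.3%). Btg2 stands in both the p53 and the mRNA decay list. These lists were pooled because none of their members passed, which by itself lowers the share, so nothing is drawn from it. With the replicate block 1 interferon-stimulated gene, 2 ER stress and ATF4 targets, 2 p53 targets, 2 SRF and YAP targets, 1 mRNA decay regulator and none of the MHC class I, sterol or collagen and matrix genes passed. Of 24 cell cycle and DNA replication genes, 2 had a higher response (median -0.18), the cyclin genes Ccne1 (1.07 ± 0.20, adjusted p = 0.0168) and Ccnd1 (0.94 ± 0.20, adjusted p = 0.0296, limma), whose adjusted p became 0.0718 without Rela-/-Relb-/-Rel-/- untreated replicate 2 for Ccne1 and 0.118 without Rela-/-Nfkb2-/- TNF replicate 1 for Ccnd1. With arrays scaled to their medians these became 0.245 for Ccne1 and 0.409 for Ccnd1. Of 15 genes of glucose uptake and glycolysis, the glucose transporter gene Slc2a3 had a lower response (-1.29 ± 0.27, adjusted p = 0.0283, and 0.111 without Rela-/-Nfkb2-/- TNF replicate 1; list median -0.18).

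**Figure D4:**
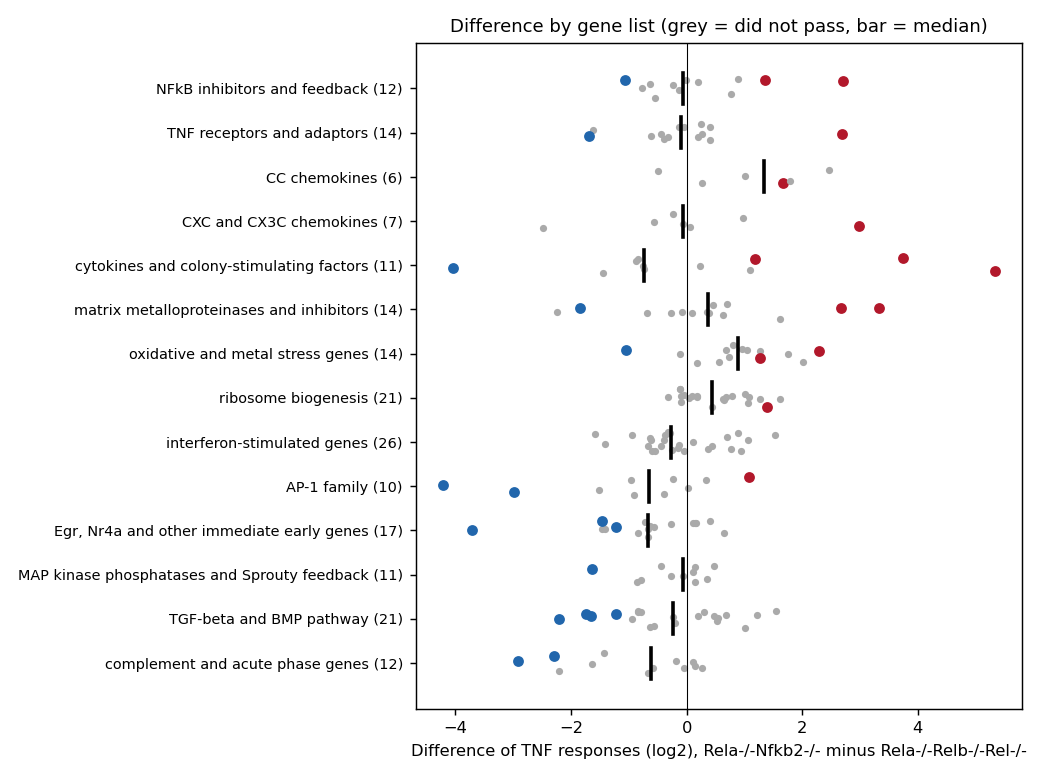
Difference of the TNF responses (log2, Rela-/-Nfkb2-/- minus Rela-/-Relb-/-Rel-/-) of each tested gene of 14 lists, with the number tested in brackets; red and blue points passed as higher and lower, grey points did not pass, vertical bars are list medians and points are spread vertically for legibility. CC chemokines and oxidative stress genes have medians of 1.34 and 0.88, while AP-1 and immediate early genes have medians of -0.65 and -0.66.

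Not all of the TNF response differed between the lines. In all 59 features rose in both lines and 42 fell in both, and for 10 of these the difference passed. Among the genes with the largest rises in both, Nppb, the gene of the natriuretic peptide BNP, was at 9.96 and 9.12 with TNF and 7.43 and 5.40 without it in Rela-/-Nfkb2-/- cells, against 12.43 and 11.68 with TNF and 7.43 and 6.74 without it in Rela-/-Relb-/-Rel-/- cells (difference -1.85 ± 0.83, adjusted p = 0.243, limma). Ptgs2, the gene of cyclooxygenase-2, was at 8.43 and 8.76 with TNF and 5.73 and 6.22 without it in Rela-/-Nfkb2-/- cells, against 8.06 and 8.60 with TNF and 5.32 and 5.32 without it in Rela-/-Relb-/-Rel-/- cells. Its difference was -0.39 ± 0.42 (adjusted p = 0.651). The levels of Ptgs2 with TNF overlapped between the lines. Serpinb2, the gene of a plasminogen activator inhibitor, had a difference of 0.46 ± 0.41 (adjusted p = 0.578), the integrin gene Itga2 one of 1.16 ± 0.74 (adjusted p = 0.414) and Fosl1, an AP-1 gene, one of -0.91 ± 0.43 (adjusted p = 0.266). Of the genes that fell in both lines, Txnip, which encodes an inhibitor of thioredoxin and of glucose uptake, was at 10.88 and 11.03 with TNF and 12.87 and 13.21 without it in Rela-/-Nfkb2-/- cells, against 10.32 and 10.09 with TNF and 12.00 and 11.66 without it in Rela-/-Relb-/-Rel-/- cells (difference -0.46 ± 0.27, adjusted p = 0.366). Sesn1, a stress-responsive inhibitor of mTOR complex 1, fell 2.61-fold in Rela-/-Nfkb2-/- and 2.72-fold in Rela-/-Relb-/-Rel-/- cells, with a difference of 0.06 ± 0.25 (adjusted p = 0.92) that turned to -0.41 with arrays scaled to their medians. Bmp3, Dbp and Selenbp1 also fell in both, with differences of -0.91 ± 0.38, -1.32 ± 0.40 and -0.95 ± 0.44 that did not pass. The differences of Ptgs2, Serpinb2, Itga2, Bmp3 and Selenbp1 are fitted values that include a group at background. For these genes a p that misses the threshold does not show equal responses.

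The WT arrays were not part of the difference, although they entered the normalization and the shared estimate of the spread. Of the 139 features with a higher response in Rela-/-Nfkb2-/- cells, 17 (12.2%) rose with TNF in WT cells and none fell, against 0.534% rises and 0.175% falls over all features tested. The median WT response of the 139 was 0.20, and that of all features -0.04. Among them, Csf2 was at 11.33 and 11.64 with TNF and 7.39 and 6.40 without it in WT cells, Lif at 12.16 and 12.38 with TNF and 10.00 and 9.75 without it, Nfkbia at 13.33 and 13.40 with TNF and 11.58 and 11.54 without it, and Traf1 at 9.62 and 9.78 with TNF and 6.80 and 7.12 without it. The TNF-treated WT arrays were above the TNF-treated Rela-/-Nfkb2-/- arrays for all 4 genes. Sema7a differed, with 10.70 and 10.79 with TNF and 10.72 and 10.21 without it in WT cells (0.28 ± 0.24, adjusted p = 0.876, limma). Of the 375 features with a lower response, 11 (2.93%) fell in WT cells, Bmp4 among them at 10.27 and 10.56 with TNF and 11.54 and 11.65 without it, and 2 rose, Selp and Tlr2. Selp was at 9.18 and 9.04 with TNF and 7.35 and 7.63 without it in WT cells, and Tlr2 at 11.72 and 11.82 with TNF and 10.17 and 9.99 without it. For Selp and Tlr2 the WT response thus had the opposite sign to that of Rela-/-Nfkb2-/- cells. Fos did not pass in WT cells (-0.39 ± 0.44, adjusted p = 0.931), where it was above background on 1 of the 4 arrays.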

How the data were processed

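RNA of both mutant MEF lines and of WT MEFs was read on Illumina MouseRef-8 v2.0 arrays, 2 arrays a group. The authors deposited unnormalized signal intensity values, each with its detection p-value, exported from GenomeStudio (version not given in the sources used here), and a table of intensity values that were background-subtracted and quantile-normalized. Arrays were mapped by their labels. Batches or chip positions were not given in the labels used here.

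The signals were processed with neqc of limma 3.58.1 (R 4.3.3), which used the detection p-values to correct the background, quantile-normalized all 12 arrays after an offset of 16 and took log2. Quantile normalization removes shifts of most genes, and the offset shrinks ratios of dim probes. Of 25697 probes, 23978 had 1 gene symbol, 1719 none and 0 several, and 23962 were matched to the gene table of GRCm38.p6. Probes with a detection p-value under 0.05 on both arrays of at least 1 mutant group were kept, and the brightest probe over the mutant arrays stood for each gene.

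A model with 6 group means was fitted to 12 arrays (lmFit, then eBayes, with 6 residual degrees of freedom and 2.90 from the prior), with Benjamini-Hochberg adjustment over all features for each contrast and 0.05 as threshold. A gene above background on neither array of 1 group of a response is given as "at least N-fold", from the brighter group's mean over the mean, per array, of the higher of the lowest signal above background and the probe's own signal. No ratio is given for a response with both groups at background. The number of arrays limits the precision. The code was tested on simulated data.

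Replicate numbers were checked for pairing. All 6 pairs of mutant groups had correlated deviations, so a block shared by the mutant lines is given where it changes a call or count, while WT and mutant deviations correlated by -0.19 to 0.00. The labels do not state this pairing. Alternatives changed the background correction, the normalization, the filter or the choice of probe, or used the authors' values, the 8 mutant arrays alone, blocks, trend and robust options, the methods' t-test and leaving out each array.

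The members, the 30 gene lists and the tests were chosen with earlier results of these data known. Genes named were the 10 largest measured differences each way whose numbered pairs shared the sign, the 4 largest each way with a group at background, up to 4 members of each list, genes the study names, and the 5 largest shared responses each way. The remaining opposite responses and the Hox, Sprr and Lce genes were named after their values were seen. Nfkb1 and Traf3 were not analysed here, and Rel, Birc3 and Cflar did not pass the filter.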

Additional observations from a re-analysis of the deposited data

Results flagged for a closer look

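The test of the difference between the TNF responses of Rela-/-Nfkb2-/- and Rela-/-Relb-/-Rel-/- cells passed for 514 features, and every gene described above as passing was picked out by that test. The 10 named genes whose own responses passed in opposite directions, with a fall in Rela-/-Nfkb2-/- and a rise in Rela-/-Relb-/-Rel-/- cells, had differences on the log2 scale of -6.26 (Lmcd1, a fitted value with 1 group at background, not a measured fold), -5.67 (Chst1), -4.21 (Fos), -3.92 (Rem2), -3.51 (Fgf10), -3.14 (Per2), -2.78 (Angpt2), -1.93 (Arsj), -1.78 (Acer2) and -1.31 (Kdelr3). The sign of each of these differences was the same in both numbered pairs of arrays. With 2 arrays in each group, single arrays were not tested for standing apart from their group.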

How the results depend on the processing

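The counts moved more than the directions. The difference passed for 514 features as reported, and for 193 with neqc over the 8 mutant arrays or a fit of those arrays alone, 143 with only probes above background on all 8 mutant arrays, 964 with the replicate block shared by the mutant lines, 1139 with the replicate block within genotype, and by the methods' t-test 1650 before and 0 after Benjamini-Hochberg adjustment. For the Rela-/-Nfkb2-/- response (1987) these were 1182 with neqc over the mutant arrays, 1170 in the fit of them alone, 3235 and 3329 with the shared and the within-genotype replicate block, and 0 by the adjusted t-test (1717 unadjusted). For the Rela-/-Relb-/-Rel-/- response (227) they were 94 with median scaling, 58 and 61 with neqc over or a fit of the mutant arrays, 111 with probes above background on all 8, 578 and 680 with the replicate blocks, and 793 and 0 by the t-test. The t-test has few degrees of freedom with 2 arrays a group. Leaving out 1 array gave 205 to 736 differences, 974 to 2209 calls in Rela-/-Nfkb2-/- and 48 to 262 in Rela-/-Relb-/-Rel-/- cells. Why single arrays move the counts was not tested.

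Of 66 genes in the report that passed, 65 kept their call without background correction, 64 with the authors' values, 49 with median scaling, 43 in the fit of the mutant arrays and 66 with either block. Of 25 with a higher response 10 kept it in all 12 fits without 1 array, and of 41 with a lower response 27. The fit of the 8 mutant arrays ended 23 calls. Among higher responses these were Nfkbie, Gclm, Ap2a1, Ccl2, Il23a, Srxn1, Jun, Rrp9, Ccne1 and Ccnd1. Among lower ones they were Nfkbiz, Aoc3, Chrd, Id1, Tlr2, Irak3, Tnfrsf11b, Bmf, Mmp17, Slc2a3, Osgin1, Angpt2 and Arsj. Median scaling ended 17 calls, those named in the report and those of Nfkbie (adjusted p = 0.116), Nfkbiz (0.115), Pdgfb (0.112), Fam110c (0.0885), Il23a (0.0846), Id1 (0.0846), Ccl2 (0.0604), Osgin1 (0.0589), Chrd (0.0579), Klf5 (0.0533), Ap2a1 (0.0507) and Mmp9 (0.0504, limma). No gene that passed turned its direction in any of these fits. Among those that did not pass, Sesn1 turned to -0.41 with median scaling, to -0.12 without Rela-/-Nfkb2-/- untreated replicate 2, to -0.02 without Rela-/-Relb-/-Rel-/- untreated replicate 2 and to -0.10 without Rela-/-Relb-/-Rel-/- TNF replicate 2, while without 1 array it ranged up to 0.24 (without Rela-/-Nfkb2-/- untreated replicate 1). Serpinb2 ranged from -0.042 (without Rela-/-Relb-/-Rel-/- TNF replicate 2) to 0.95 (without Rela-/-Relb-/-Rel-/- TNF replicate 1). Signal over background limits sizes: 83 of the 139 higher and 190 of the 375 lower responses had all 4 mutant groups above background, and the size of the others has only a bound or rests on 1 line.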

Other observations

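Families looked up after the values were seen carry no test of their own. Of all features tested, 1.43% had a higher response in Rela-/-Nfkb2-/- cells and 3.85% a lower one. Of 22 Hox genes tested, 7 had a lower response in Rela-/-Nfkb2-/- cells and none a higher one (median -0.02), of which 5 were among the 6 HoxD genes tested (median -2.24). Hoxd12 was at 4.92 and 5.07 with TNF and 9.07 and 9.13 without it in Rela-/-Nfkb2-/- cells, at least 8.62-fold lower, Hoxd13 at 6.23 and 5.97 with TNF and 8.32 and 8.09 without it, Hoxd8 at 5.09 and 5.50 with TNF and 6.95 and 7.49 without it, and Hoxd9 at 5.32 and 5.18 with TNF and 6.94 and 6.53 without it. In Rela-/-Relb-/-Rel-/- cells these genes and Hoxd10 were at background on nearly all arrays (Hoxd13 was above it on 1 of 4), so their fall is read in 1 line only. Hoxd11 did not pass (difference 0.32 ± 0.26, adjusted p = 0.536, limma), while Hoxa5 was at 5.01 and 5.02 with TNF and 8.86 and 7.86 without it in Rela-/-Nfkb2-/- cells, against 11.48 and 10.95 with TNF and 11.50 and 11.30 without it in Rela-/-Relb-/-Rel-/- cells (adjusted p of the difference 0.0041).

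The Sprr and Lce genes are known from the cornified layer of the epidermis. Of 5 small proline-rich (Sprr) genes tested, 3 had a higher response in Rela-/-Nfkb2-/- cells (median 1.52), among them Sprr2e, at least 2.43-fold higher with TNF there and above background on no Rela-/-Relb-/-Rel-/- array, at 6.62 and 6.66 with TNF and 5.04 and 4.80 without it in WT cells. Of 4 late cornified envelope (Lce) genes, 2 had a lower response (median -0.96), and Lce3c was at 10.05 and 9.82 with TNF and 8.66 and 8.74 without it in Rela-/-Nfkb2-/- cells, against 8.54 and 8.15 with TNF and 5.86 and 5.58 without it in Rela-/-Relb-/-Rel-/- cells. These genes lay outside the lists above, and their differences had adjusted p-values of 6.48e-04 (Sprr2e) and 0.0164 (Lce3c, limma).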
